A study of Rattus norvegicus with 4 samples.

Results

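The miR-365 hairpin gives rise to a pair of small RNAs, and both arms had a probe on the arrays: rno-miR-365, from the 3′ arm, and rno-miR-365*, from the 5′ arm, written miR-365 and miR-365* from here on. These 2 probes, of 679 for rat microRNAs (miRNAs), were taken by name. They were chosen by their log2 changes from the untreated array, since their signals moved in opposite directions after interleukin-1β (IL-1β), an inflammatory cytokine of the arthritic joint. Those changes are therefore descriptions of the choice, and no test was made on them. The cells were rat primary chondrocytes, the cells that build and maintain cartilage matrix, kept at 200000 cells per ml. The groups were untreated cells at 0 h and cells given 10 ng/ml IL-1β and collected after 6, 12 or 24 h. Strain, age and number of animals are not given in the sources used here. There was 1 sample and 1 array for each of the 4 groups, with 5 spots per probe. Spread between samples is thus unknown, and no p-value was computed. Untreated cells were read at 0 h alone, and IL-1β and time in culture cannot be told apart.

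A miRNA hairpin is cut by Dicer into a short duplex of its 2 arms, of which usually one strand is loaded into an Argonaute protein and guides it to messenger RNAs through its seed, bases 2 to 8, while the other strand is mostly degraded. In chick growth plate chondrocytes, miR-365 has been described as a mechanosensitive miRNA that rises under load and acts on the messenger RNA of Hdac4, a histone deacetylase that restrains chondrocyte hypertrophy. miR-365* is the passenger strand in the naming of the array, and no role of its own is given to it here.

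The mature sequences are shown because the arms share no seed and differ in length and base composition, which bears on how an array reads them; capitals mark the seed.
miR-365: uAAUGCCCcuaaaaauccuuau
miR-365*: gAGGGACUuucaggggc
The target sequences in the array files were identical to the RefSeq entries, which now carry the names rno-miR-365-3p and rno-miR-365-5p.

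Both lie in Mir365b on the plus strand of rat chromosome 10 (GRCr8, chr10:65184217-65184302), with miR-365* at 65184231 to 65184247 and miR-365 at 65184271 to 65184292. The hairpin is printed with the arms in capitals, to show their place on the stem.
Mir365b hairpin: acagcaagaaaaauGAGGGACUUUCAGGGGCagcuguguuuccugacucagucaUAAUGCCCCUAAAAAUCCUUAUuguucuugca
In its predicted fold of lowest energy (-36.9 kcal/mol), 14 of the 17 bases of the 5′ arm pair with the 3′ arm, and 23 bases lie between the arms. Mir365b lies within the annotated span of the protein-coding gene Faul2 (chr10:64622733-65355932); the gene table gives no exons, so that exonic and intronic positions were not told apart. No other probe on the array had the seed of either arm.

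miR-365 has 22 bases and a GC content of 31.8%, with 644 of the 679 probe targets richer in GC. miR-365* has 17 bases, the shortest length on the array and shared by 8 targets, and a GC content of 64.7%, with 49 targets richer in GC.

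The spot intensities of the arrays were in linear scanner units with no background removed. Signal above the 95th percentile of the 261 empty spots in at least 3 of 5 spots, called detection here, was found for 187 miRNAs in the untreated sample and for 355, 240 and 210 at 6, 12 and 24 h. The limit itself differed between arrays, at 151.3 units in the untreated sample and 54.2, 96.4 and 86.2 units at 6, 12 and 24 h. The 12 h array stood apart in its control probes: over background, 7 probes named as mismatched versions read a median of 24.4% of their matched partners there, against 2.87% at 0 h, 4.36% at 6 h and 2.63% at 24 h. Of the 4 chondrocyte markers, miR-140, miR-140*, miR-455 and miR-455*, 3 were detected at 0 h and all 4 at each later time, with a summed signal over background of 9979 to 14017 units. Most of that sum came from miR-140*, which read 8403 units over background at 6 h and 11594 at 24 h. The 4 blood markers and the liver marker miR-122 were detected on no array, and of the 6 epithelial markers miR-203 was detected, at 6 h. The endothelial miR-126, not detected at 0 h, read 40.3, 122 and 163 units over background at 6, 12 and 24 h. Of 4 muscle markers, 3 were detected at 6 h and miR-206 alone on the other arrays, with sums of 606 to 956 units. Of 3 neural markers, 2 were detected at 6 h and on the other arrays only miR-128, which many tissues express, with sums of 150 to 434 units. The part of other cell types in the results was not tested, and in bulk RNA fewer cells of a type and less RNA per cell cannot be told apart.

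miR-365 was the arm that stood higher after IL-1β. In untreated chondrocytes its 5 spots read 244.19, 176.87, 189.82, 240.80 and 245.75 units, all above the limit of that array but at a mean only 1.45 times it. At 6 h they read 744.59, 364.10, 670.68, 696.95 and 623.47 units, with 1 spot well below the other 4. At 12 h the spots read 1820.65, 1293.14, 1591.81, 1596.58 and 1513.69 units, 16.2 times the limit on average. At 24 h they had returned to 434.06, 295.40, 344.75, 359.68 and 444.73 units. Detection held in 5 of 5 spots on every array, so no value of miR-365 is a bound.

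miR-365* ran the other way and was brightest in untreated cells. Its spots read 780.95, 591.79, 680.17, 761.34 and 647.13 units at 0 h, 4.57 times the limit on average. At 6 h they read 162.60, 129.62, 161.59, 166.79 and 157.72 units, and at 12 h 276.43, 193.85, 263.09, 287.43 and 250.64 units. At 24 h they read 388.62, 315.08, 387.82, 354.12 and 270.45 units, between the earlier treated arrays and the untreated one. All 5 spots were above the limit on every array here too.

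**Figure D1:**
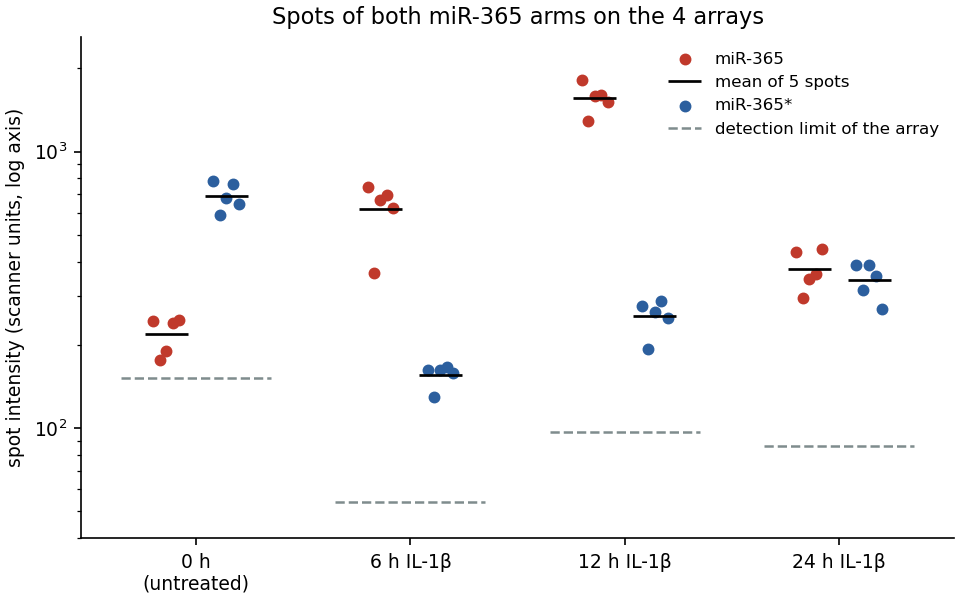
Intensity of each spot of miR-365 (red) and miR-365* (blue) on the 4 arrays, in scanner units on a log axis; black bars are means of 5 spots and dashed lines the detection limit of each array. miR-365 peaks at 12 h, miR-365* is highest at 0 h, and all spots lie above the limit of their array; heights of different probes are not amounts that can be compared.

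After background correction and quantile normalization, which give the arrays a common distribution, the 5 spots of miR-365 spanned log2 levels of 7.32 to 8.02 at 0 h, 8.85 to 9.81 at 6 h, 9.92 to 10.29 at 12 h and 8.16 to 8.71 at 24 h. These ranges did not overlap, and the order was 12 h, 6 h, 24 h and 0 h. For miR-365* the ranges were 9.63 to 10.12 at 0 h, 7.53 to 7.87 at 6 h, 7.44 to 7.89 at 12 h and 8.07 to 8.53 at 24 h. Here 0 h was highest, 24 h next, and 6 h and 12 h overlapped and were not ordered. Spots are repeats on 1 array, not samples, and the ranges show spot error only.

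At 6 h, miR-365 stood 3.35-fold above the untreated level (log2 change 1.75 ± 0.23, standard error from 5 spots per array), the highest change of the 355 miRNAs compared. miR-365* had fallen 4.54-fold (-2.18 ± 0.11), rank 2 from the lowest. Throughout, a call asks for a log2 change of 1 or more in size that also exceeds 2 standard errors. It was made for miRNAs detected on either array of a comparison. In alternatives built on the authors' deposited values, which have no spot error, the size alone was asked for. By the full rule 3.66% were called at 6 h, 1.41% higher and 2.25% lower. Both arms were called, which follows from how they were chosen.

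At 12 h, miR-365 rose 5.17-fold over the untreated level (2.37 ± 0.16) and ranked 3 of 249, with 5.62% called higher. miR-365* was 4.64-fold lower (-2.21 ± 0.12) and ranked 4 from the lowest, with 4.02% called lower and 9.64% in either direction. Without normalization between arrays it was called at -1.38. The 12 h values of all miRNAs, miR-365 included, come from the array with raised mismatch signal, whose part in them was not tested. With that array left out of the normalization, miR-365 read 1.75 and 0.66 at 6 h and 24 h, and miR-365* -2.15 and -1.59.

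The probes closest in sequence to miR-365 were miR-18a* and miR-206*, each 8 single-base edits away and below the limit on every array. The next was miR-193, 9 edits away, with a mean of 286 units at 12 h against 1563 for miR-365. Any part of other RNAs in the signal of miR-365 was not tested.

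At 24 h miR-365* alone was called. It was still below the untreated level, by -1.59 ± 0.12 on the log2 scale, beside 5.58% called lower and 13.7% in either direction. Without normalization between arrays its change was -0.95, under the rule. miR-365 read 1.62-fold above the untreated level (0.69 ± 0.18) and was not called, beside 8.15% called higher. These comparisons share the untreated array, so an odd value of either probe on it would recur at each time. The nearest probe to miR-365*, miR-3584-5p, was 6 edits away and brighter, with mean intensities of 2091, 3059, 2306 and 1457 units at 0, 6, 12 and 24 h. In these uncorrected units miR-3584-5p was brightest at 6 h, where miR-365* was dimmest. After normalization miR-365* read 7.76 at 6 h and 7.73 at 12 h. Any part of miR-3584-5p in the signal of miR-365* was not tested.

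**Figure D2:**
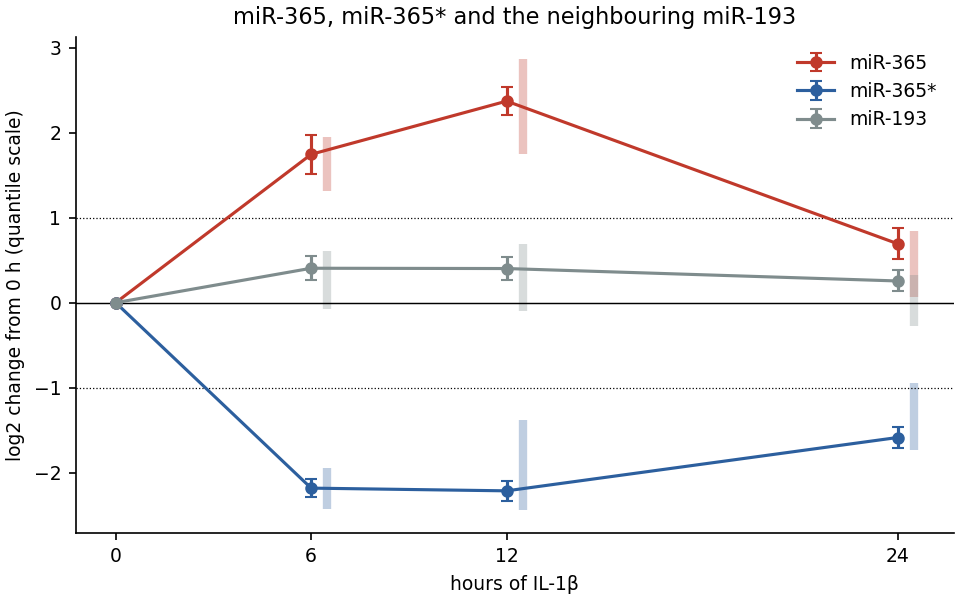
Log2 change from 0 h on the quantile scale for miR-365 (red), miR-365* (blue) and miR-193 (grey) against hours of IL-1β; error bars are standard errors from spots, pale bars span the value over all settings tried, and dotted lines mark a 2-fold change. miR-365 reaches 2.37 at 12 h, miR-365* -2.21, and miR-193 0.40.

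Comparisons among the treated arrays leave the untreated array out. From 6 h to 12 h neither arm passed the rule, with log2 changes of 0.63 ± 0.18 for miR-365 and -0.03 ± 0.10 for miR-365*, beside 1.13% called higher, 0.282% lower and 1.41% in either direction. Without normalization the step of miR-365 was 1.33 and passed. From 12 h to 24 h miR-365 fell 3.20-fold (-1.68 ± 0.12), one of the 13 of 248 miRNAs called lower (5.24%, beside 4.44% higher and 9.68% in either direction), and this call held in all 12 alternatives. miR-365* changed by 0.63 ± 0.12 over the same step, under the rule. From 6 h to 24 h miR-365 fell 2.07-fold (-1.05 ± 0.20), beside 3.08% called lower, 3.92% higher and 7% in either direction. It read -0.68 without normalization, where it was not called. miR-365* read 0.60 ± 0.10, and passed without normalization at 1.03. Of the steps between treated arrays, the fall of miR-365 from 12 h to 24 h was thus the single-arm call that held under each scaling tried.

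The difference between the arms, log2 miR-365 minus log2 miR-365* on one array, cancels a multiplying factor common to that array. Background and quantile normalization do not cancel in this way. Probes respond differently to their targets. The value of the difference on one array is thus not a ratio of amounts, and only its change was read. It rose by 3.93 ± 0.25 at 6 h, by 4.58 ± 0.20 at 12 h and by 2.28 ± 0.22 at 24 h, which are 15.2-fold, 24.0-fold and 4.86-fold changes of the signal ratio. From 12 h to 24 h it fell by 2.30 on the log2 scale, with a standard error of 0.16. The change from 0 h moved with background and scaling. At 6 h it was 4.35 with plain subtraction of the empty-spot median and 3.51 without normalization between arrays. At 24 h it was 2.52 and 1.80 in the same order.

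On each array the spots of the arms sit next to each other in 5 separate places, and each place gives its own arm difference. At 6 h the 5 places gave changes of 4.10, 3.63, 4.32, 3.93 and 3.66, and at 12 h 4.57, 4.80, 4.91, 4.40 and 4.24. At 24 h they gave 2.23, 2.19, 2.36, 2.13 and 2.49. All 15 values were above 2, and the spread between places was under 0.7 at each time. The low miR-365 spot at 6 h was in the place that gave 3.63, where the adjacent miR-365* spot was also the dimmest of its 5.

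The same change was computed for the other hairpins of the array with a probe for each arm, 259 in all with miR-365. Pairs with both arms detected on the untreated array, or both on the treated one, numbered 83 at 6 h, 42 at 12 h and 36 at 24 h, miR-365 included. Pairs could enter through the treated array alone, and the limit was 54.2 units at 6 h against 151.3 at 0 h. The other pairs are thus not the same set at each time, and at 6 h they include arms below the limit at 0 h. At 6 h, miR-365 ranked first by size at 3.93, ahead of miR-672 (-1.31 ± 0.16), miR-455 (1.19 ± 0.19), miR-29c (1.08 ± 0.24) and miR-322 (0.97 ± 0.21), and the median size over the other 82 pairs was 0.32. At 12 h it again ranked first at 4.58, ahead of miR-455 (1.85 ± 0.16), miR-672 (-1.76 ± 0.16), miR-328a (-1.74 ± 0.32) and miR-322 (1.41 ± 0.17), with a median of 0.48 over the other 41.

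miR-365 was the only pair at 6 h and 12 h with its arms called in opposite directions, which is the property it was picked for. Its ranks by size rest on the same changes and likewise follow from the choice. Arms of unlike sign as such were common, in 36 of 83 pairs at 6 h, 19 of 42 at 12 h and 19 of 36 at 24 h.

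At 24 h miR-365 ranked 2 at 2.28, after miR-328a (3.11 ± 0.37), and within its own error of miR-34c (2.17 ± 0.12). Next came miR-322 (1.70 ± 0.15) and miR-140, a cartilage-enriched miRNA (1.68 ± 0.14). No pair had arms called in opposite directions at that time. In the values of the authors' deposited table and without normalization its rank at 24 h was 3.

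**Figure D3:**
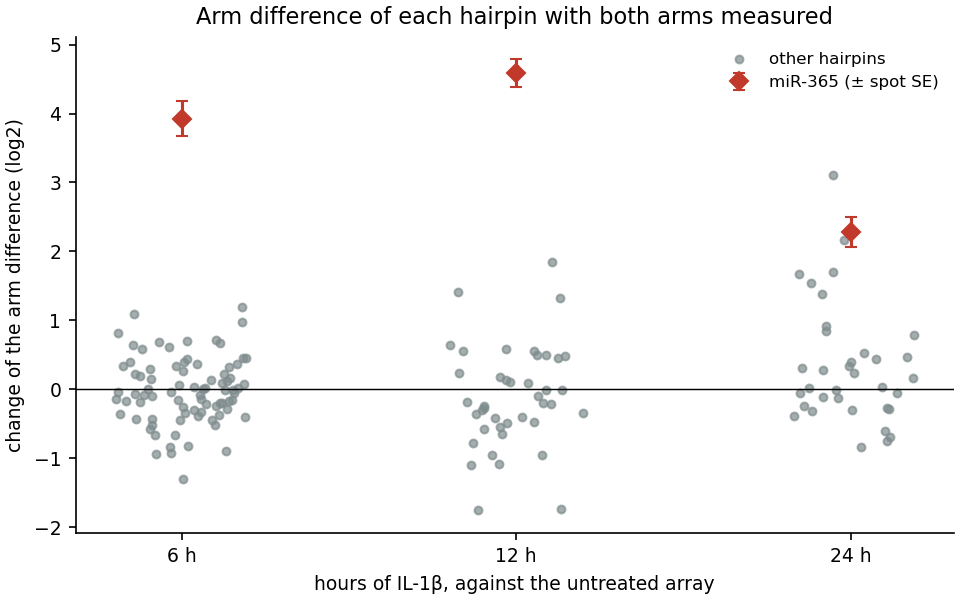
Change of the arm difference from 0 h, in log2 units, for each hairpin with both arms detected on the untreated array or both on the treated one; red diamonds are miR-365 with the standard error from spots, grey points the other hairpins. miR-365 stands at 3.93 and 4.58 at 6 h and 12 h, against a largest size of 1.31 and 1.85 among the others, and at 2.28 at 24 h, below miR-328a at 3.11.

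Changes on these arrays ran with base composition, and the arms of miR-365 lie toward opposite ends of it. Across miRNAs, which share array and labelling and are not independent, the change from 0 h correlated with GC content at r = -0.43, -0.47 and -0.44 at 6, 12 and 24 h. With the linear trend on GC content taken out, the change of miR-365 was 1.38, 1.75 and 0.07 at 6, 12 and 24 h, and that of miR-365* was -1.94, -1.72 and -1.06. The calls were the same as without the correction. The arm difference rose by 3.32, 3.47 and 1.13 with it, against 3.93, 4.58 and 2.28 without. The part of base composition or length in the changes of the arms was not tested. The 24 h change of miR-365 was the one that came near 0. From 12 h to 24 h there was no such trend (r = -0.00018), and the step of miR-365 was -1.68 with and without the correction. The other steps between treated arrays had one, with r = -0.34 from 6 h to 12 h and -0.20 from 6 h to 24 h. Correction moved those steps of miR-365 from 0.63 to 0.42 and from -1.05 to -1.28.

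**Figure D4:**
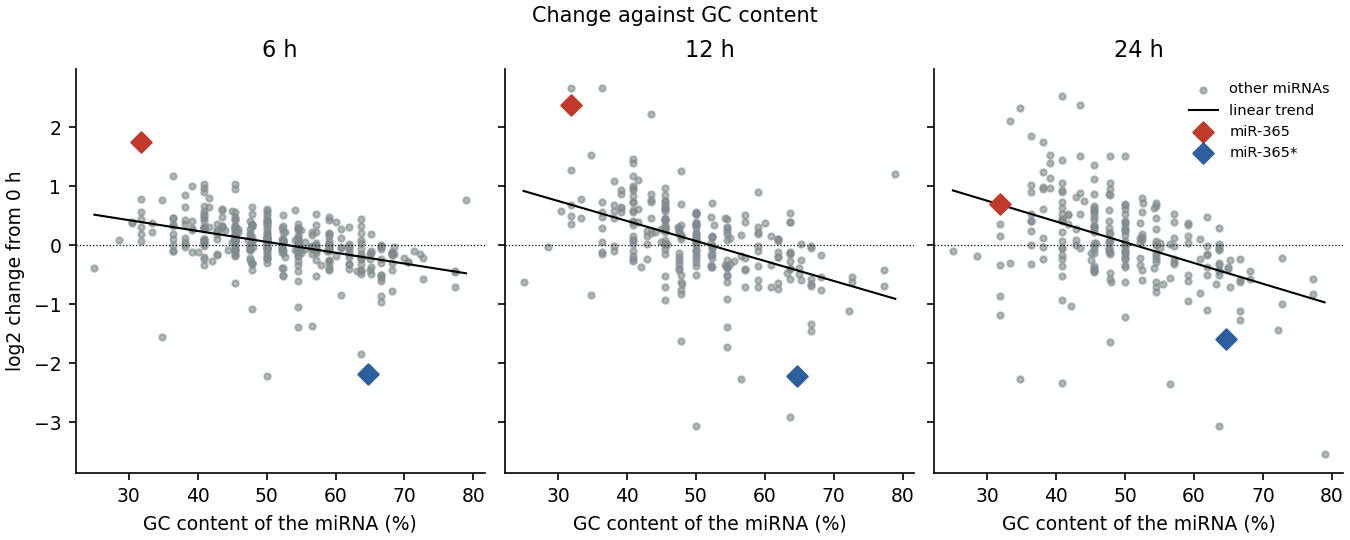
Log2 change from 0 h against GC content of the miRNA at 6, 12 and 24 h, for all miRNAs detected on either array of the comparison (grey), with the linear trend (black), miR-365 (red, GC 31.8%) and miR-365* (blue, GC 64.7%). At 6 h and 12 h both arms lie well off the trend on opposite sides; at 24 h miR-365 lies close to it, with a corrected change of 0.07, and miR-365* below it.

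The scaling of the arrays moved the changes, and not by the same amount for each miRNA. The median change of all miRNAs compared was 0.03, 0.09 and 0.02 at 6, 12 and 24 h on the quantile scale, -0.40, -0.37 and -0.19 when arrays were scaled on the median level of those 163 miRNAs with detection on every array, and -0.32, 0.40 and 0.30 without normalization. Relative to that median, miR-365 stood at 1.71, 2.28 and 0.67 on the quantile scale and at 1.85, 2.46 and 0.55 on the other scales. miR-365* stood at -2.21, -2.31 and -1.61 on the first and at -1.66, -1.78 and -1.25 on the others.

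The authors' deposited table gives 1 intensity per miRNA and array, linear, with a lowest value of 0 at 0 h and medians of 24.29, 22.53, 23.37 and 20.33 at 0, 6, 12 and 24 h. How it was centred and scaled is not given in the sources used here. In the authors' deposited table miR-365 reads 199.9 at 0 h and 721.93, 1021.82 and 296.04 in treated cells. miR-365* reads 829.9, 145.97, 147.81 and 243.65 there. These are ratios to 0 h of 3.61, 5.11 and 1.48 for miR-365 and 0.176, 0.178 and 0.294 for miR-365*, in the same order of times as the spot values.

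The next miRNA hairpin upstream on the same strand is Mir193, the source of miR-193 and miR-193*, with 13814 bases between it and Mir365b and no other gene of the RefSeq table lying wholly between them. Linked miR-193 and miR-365 hairpins are a known arrangement in mammalian genomes. The mature sequence of miR-193 is printed because it is also the third nearest probe to miR-365, and capitals mark its seed, which differs from that of miR-365.
miR-193: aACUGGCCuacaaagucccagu
It lies at chr10:65170370-65170391 on the plus strand (GRCr8).

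miR-193 did not pass the rule at any time. Its mean intensity was 190, 169, 286 and 200 units at 0, 6, 12 and 24 h, above the limit of each array in all 5 spots and at 1.25 times it at 0 h. Its log2 change was 0.41 ± 0.14, 0.40 ± 0.13 and 0.26 ± 0.12 at 6, 12 and 24 h, and -0.07, -0.10 and -0.27 after median scaling. The change of miR-365 exceeded that of miR-193 by 1.34, 1.97 and 0.44 in the same order, and by 1.01 and 1.35 at 6 h and 12 h after GC correction. At 24 h the GC-corrected difference was -0.20. miR-193* was detected at 6 h but not on the other arrays, with a log2 change of 0.11 ± 0.10 at 6 h. miR-3549, annotated on the opposite strand of the same hairpin, was likewise above the limit only at 6 h, at 1.05 times it.

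The profiles over the 4 arrays most like each arm, by the root mean square distance between log2 levels centred on their own mean, were sought among the other 162 miRNAs detected on all arrays. For miR-365 they were miR-352 (distance 0.48), miR-466d (0.51), let-7e (0.51), miR-350 (0.53) and miR-129-2* (0.55). Of these, let-7e belongs to the let-7 family of differentiation-linked miRNAs, and its log2 changes were 0.67, 1.17 and -0.53 at 6, 12 and 24 h, against 1.75, 2.37 and 0.69 for miR-365. The change of miR-352 was 0.84, 1.08 and -0.23. The 12 h calls of let-7e and miR-352 ended after GC correction, at 0.86 and 0.67. Those calls, too, come from the array with the raised mismatch signal, whose part in them was not tested. Without normalization let-7e read 1.24, 2.06 and 0.08, and miR-352 read 1.51, 2.46 and 0.57. On that scale miR-365 itself read 1.53, 2.86 and 0.85. The distance of miR-352 to miR-365 was 0.17 there and after median scaling, so that a similar time course was seen in another miRNA. On the quantile scale all 5 had smaller changes than miR-365 at 6 h and 12 h. Their GC content ran from 31.8% to 45.5%, and none was within 10 edits of miR-365 in sequence.

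For miR-365* the nearest profiles were miR-455* (0.42), miR-672 (0.47), miR-3593-3p (0.53), miR-1224 (0.55) and miR-652* (0.59). miR-455* is the opposite arm of the cartilage-enriched miR-455, and its log2 changes were -1.05, -1.39 and -0.79, smaller than the -2.18, -2.21 and -1.59 of miR-365*. miR-672 read -1.08, -1.62 and -1.63. These values turned on the scaling: without normalization miR-455* read -0.35, -0.12 and 0.04, and miR-672 read -0.67, -0.60 and -0.83, none of them called. The call of miR-455* held in 7 of 13 alternatives at 6 h and 10 of 12 at 12 h, and that of miR-672 in 9 of 13 at 6 h, 11 of 12 at 12 h and 12 of 13 at 24 h. By likeness the own partner arm ranked 161 of 162 for miR-365 and 159 of 162 for miR-365*, which follows from the choice of a pair that moved apart on these arrays. Without normalization and after median scaling, 2 of the 5 names stayed for each arm: miR-352 and let-7e for miR-365, and miR-652* and miR-3593-3p for miR-365*.

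Other miRNAs known to act on Hdac4 were read as a list of 8: miR-140, miR-29a, miR-29b, miR-29c, miR-1, miR-206, miR-22 and miR-200a. Of the 7 compared at 6 h, miR-29c rose and none fell, where 1.41% of all miRNAs were called higher, and the median change was 0.18 beside 0.03 over all miRNAs. At 12 h, miR-29b (1.53 ± 0.17) and miR-29c (2.67 ± 0.19) rose among 6 compared, beside 5.62% of all called higher, with a median of 0.39 beside 0.09. Both were read on the array with the raised mismatch signal, whose part in them was not tested. The spot mean of miR-29c was 8572 units there and 3384 units at 24 h. At 24 h miR-140 (1.37 ± 0.10), miR-29b (2.33 ± 0.21) and miR-29c (1.85 ± 0.27) rose among 6, beside 8.15% of all called higher, with a median of 1.01 beside 0.02.

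miR-140, whose action on Hdac4 was described in mouse cartilage, thus peaked at 24 h, when miR-365 had come down. Its spot means were 193, 149, 363 and 515 units at 0, 6, 12 and 24 h, and its call at 24 h ended after median scaling (0.98). The other arm of its hairpin, miR-140*, read -0.31 ± 0.09 at 24 h. At 0 h miR-140 and miR-29b, at 193 and 198 units, were both near the limit of 151.3 units. The call of miR-29c at 6 h (1.18 ± 0.23) ended after GC correction, at 0.90. miR-206, better known from muscle, read -0.93 ± 0.09 at 12 h without passing. It was called lower in 3 of 12 alternatives, at -1.19 in the authors' values with 10 added (called by size alone), and read 0.02 without normalization. miR-1 was detected at 6 h alone, and miR-200a on no array.

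Of 9 miRNAs listed as responsive to IL-1 or to load in chondrocytes, none was called at 6 h, where 3.66% of all miRNAs were called. The nearest was miR-146a, a miRNA induced by NF-κB signalling, at 0.97 ± 0.13, which passed in 4 of 13 alternatives. It rose to 1.39 ± 0.10 by 12 h and to 2.52 ± 0.13 by 24 h, and these calls held in all 12 and 13 alternatives. From 12 h to 24 h miR-146a rose by 1.13 ± 0.09 while miR-365 fell, though that call of miR-146a held in 9 of 12 alternatives and read 0.59 without normalization. miR-140, given above, was the other member called, at 24 h, beside 13.7% of all miRNAs called then. miR-21, miR-27a, miR-27b, miR-221, miR-222, miR-146b and miR-455 were not called at any time against the untreated array on this scale, and ranged at 24 h from 0.13 for miR-27a to 0.85 for miR-221. The list's median was 0.07, 0.16 and 0.59 at 6, 12 and 24 h, beside 0.03, 0.09 and 0.02 over all miRNAs.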

How the data were processed

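Per the labels, total RNA was extracted with a column kit, small RNAs were kept by filtration, tailed, tagged and stained with Cy5. Per the file headers, the deposited spot files hold mean intensity per spot in linear units; scanner, software and normalization of the authors' deposited intensity table are not given in the sources used here. Spots were corrected with normexp (offset 50) in limma 3.58.1 (R 4.3.3) over all spots, quantile-normalized over all 3395 miRNA spots of an array, taken as log2 and averaged over the spots of a probe. Standard errors come from 5 spots per array. With 1 array per group there is no test, and the number of arrays limits the precision. Further steps used Python 3.11.15, pandas 2.3.3, matplotlib 3.10.9 and RNAfold of ViennaRNA 2.7.2. Sequences and coordinates are from RefSeq (GRCr8); both arms and miR-193 matched. The members, lists and rules were chosen with earlier results of these data known. Named miRNAs are the arms, the miR-193 hairpin, the listed miRNAs, the 5 nearest profiles per arm, the leading arm pairs and the nearest probes. miR-3549 was added after its values were seen. Alternatives changed background, offset, normalization, source of values, pseudocount, spot summary, arrays normalized together, GC trend, undetected levels and call rules.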

Additional observations from a re-analysis of the deposited data

How the results depend on the processing

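Rises of the arm difference from 0 h held in every alternative, at 3.32 to 4.35 at 6 h, 3.47 to 5.05 at 12 h and 1.13 to 2.52 at 24 h, as did the calls of both arms at 6 h and 12 h. Not every alternative could move these values. The one for undetected levels leaves both arms unchanged, since they were detected on every array. Median scaling and no normalization give the same arm difference by construction. miR-365 at 24 h stayed uncalled (0.07 to 0.85). Without normalization between arrays, miR-365* at 24 h read -0.95 and miR-365 from 6 h to 24 h -0.68, both no longer past the rule, while miR-365 from 6 h to 12 h (1.33) and miR-365* from 6 h to 24 h (1.03) passed. The arm pair rank at 24 h became 3 in the authors' values (50 added) and without normalization, and 2 of 5 nearest profiles stayed for each arm without normalization and after median scaling. The position-matched spot error, chosen after seeing the data, does not enter the value of the arm difference, and it changed no call. The cause of these differences was not tested.

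Counts of called miRNAs moved more. Against 13, 24 and 32 at 6, 12 and 24 h (5, 14 and 19 higher), median scaling gave 28, 46 and 51 (9, 14 and 13 higher), no normalization 25, 58 and 52 (14, 52 and 34 higher), and a 1.5-fold rule 37, 73 and 79. The authors' values with 10 added, called by size alone because they have no spot error, gave 45 and 59 at 12 and 24 h. Detection on both arrays gave 18 at 24 h. From 6 h to 12 h, 5 calls became 8 after median scaling, 25 without normalization, 12 in the authors' values with 10 added and 18 by the 1.5-fold rule. From 12 h to 24 h, 24 became 43 in the authors' values with 10 added and 62 by the 1.5-fold rule, and from 6 h to 24 h, 25 became 50 and 74. No array could be left out of a group of 1, and no 12 h value exists without the 12 h array. No paired analysis was possible because each group has 1 array. At 0 h, miR-365 read only 1.45 and miR-193 only 1.25 times the detection limit.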
